A study of Mus musculus with 75 samples.

Results

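The Bcl2 family genes Bcl2, Bcl2l1, Mcl1, Bax, Bak1, Bok, Bid, Bcl2l11 and Bbc3, together with Faim2, were followed across 75 hand-picked mouse cochlear cells. These 10 genes were named as regulators of apoptosis, with earlier results of these data known, and are 10 of the 55291 genes of the count table. All 10 reached 1 CPM (counts scaled to a common library size) in at least 1 cell. The strain was C57BL/6 throughout, every cell was picked for Tdtomato fluorescence, and RNA of each cell was amplified by Smart-Seq. The 17 WT_P30 OHCs were outer hair cells from Slc26a5 CreER/+; Ai9/+ mice at age 30 days, given tamoxifen at P20 and P21. The 16 WT_P60 SCs were supporting cells, mainly pillar and Deiters' cells, from Fgfr3-iCreER+; Ai9/+ mice at age 60 days, given tamoxifen at P30 and P31. The other 42 cells came from 60-day-old Fgfr3-Atoh1-Ikzf2-DTR mice. These carried Fgfr3-iCreER+, the Cre-dependent transgene CAG-LSL-Atoh1+, the knock-in Rosa26 CAG-LSL-Ikzf2/+ with its Tdtomato tag, and the toxin receptor allele Slc26a5 DTR/+. In them tamoxifen at P30 and P31 switched on Atoh1 and Ikzf2 in Fgfr3-lineage SCs and diphtheria toxin at P36 killed the endogenous OHCs through the receptor under the Prestin gene. These were sorted by the study into 11 OHC-like cells (Myo7a+/Prestin+), 16 nascent HCs (Myo7a+/Prestin-) and 15 cells named SCs failing to become HCs (Myo7a-/Prestin-), called failing SCs below. The wild-type mice carried neither transgene and no toxin receptor, so transgene, lesion and library preparation cannot be told apart in any comparison with them, and the WT_P30 OHCs were also younger.

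Apoptosis through mitochondria is set by a balance within the Bcl2 family. Bcl2, Bcl-xL (the main product of Bcl2l1) and Mcl1 hold the effectors Bax and Bak (Bak1) in check, Bok is a related effector-like protein, and the BH3-only proteins Bid, Bim (Bcl2l11) and Puma (Bbc3) set the effectors free. Bid links death receptors to mitochondria after cleavage by caspase 8, and Puma is a classical target of p53. Faim2 is a membrane protein of the TMBIM family, best known in neurons, that inhibits death signalling from the Fas receptor. In the cochlea these genes matter because hair cells die by apoptosis after ototoxic drugs and noise.

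Each sample was a cell and the labels named no animal, so each group counts as 1 sample and no p-value was computed. Levels below are means over cells ± SD over cells, and n is the number of cells. Intervals are exact 95% intervals. Those on shares of cells are binomial and treat the cells as independent draws. Those on ratios of summed counts, called counting intervals, treat the reads as independent. Neither kind covers differences between animals. Counts per cell ran from 4264780 to 22934062. WT_P30 OHCs had 4697 ± 493 genes at 1 CPM or more (SD, n = 17), fewer than WT_P60 SCs (6780 ± 686, n = 16), OHC-like cells (7955 ± 1646, n = 11), nascent HCs (8006 ± 664, n = 16) and failing SCs (6928 ± 1229, n = 15). The part of this gap in the detection counts below was not tested. After every cell was thinned to 4264780 counts, the number of cells with a member detected was the same in all groups for every member except Bbc3, which was found in 1 rather than 2 of the failing SCs. Hair cell and SC markers were read against the labels: the hair cell markers Myo7a, Pvalb, Calb1 and Espn had no count in any WT_P60 SC, and of 6 SC markers Sox2, Sox10 and Gjb6 had none in any WT_P30 OHC while Bace2, Ceacam16 and Gjb2 were found in 1, 3 and 1 of 17, with sums of all 6 up to 482.7 CPM (OHC 6). Myo7a and Slc26a5 chose the induced groups, so their levels there check nothing. Among the induced cells, OHC-like cell 4 (3348 genes) and failing SCs 2 and 4 (4859 and 4262 genes) had few genes, and the values that rest on them are given with and without them.

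A gene is called past the fold here when its mean differed by more than 4-fold between groups and reached 10 CPM in 1 of them. The same rule over all genes gives the background share. By that rule WT_P30 OHCs differed from WT_P60 SCs in 2 of the 5 members at 10 CPM: Faim2 was higher, against 16.2% of the 10023 genes tested, and Bcl2l1 was lower, against 21.5%. Bbc3 was higher in OHC-like cells (background 19.3%) and in nascent HCs (background 18.1%) than in WT_P60 SCs, and no member was past the fold in the lower direction, where the background shares were 11.7% and 10.3%. No member was past the fold between failing SCs and WT_P60 SCs, where 16.7% of genes were higher and 8.26% lower. OHC-like cells differed from WT_P30 OHCs in 2 of 6 members, with Bbc3 higher (background 23.5%) and Faim2 lower (background 10.5%). The median log2 ratio of all genes tested was -0.12 for WT_P30 OHCs over WT_P60 SCs, 0.35, 0.34 and 0.28 for OHC-like cells, nascent HCs and failing SCs over WT_P60 SCs, and 0.52 for OHC-like cells over WT_P30 OHCs. Member medians over those at 10 CPM were -0.20, 1.42, 1.335, 1.40 and 1.43 in the same order. The 3 comparisons with WT_P60 SCs share these control cells. A group without a count was set to 3 counts, and folds given as at least are bounds on reads under that setting. Reads carry no molecular identifiers, so these folds are not bounds on transcripts.

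**Figure D1:**
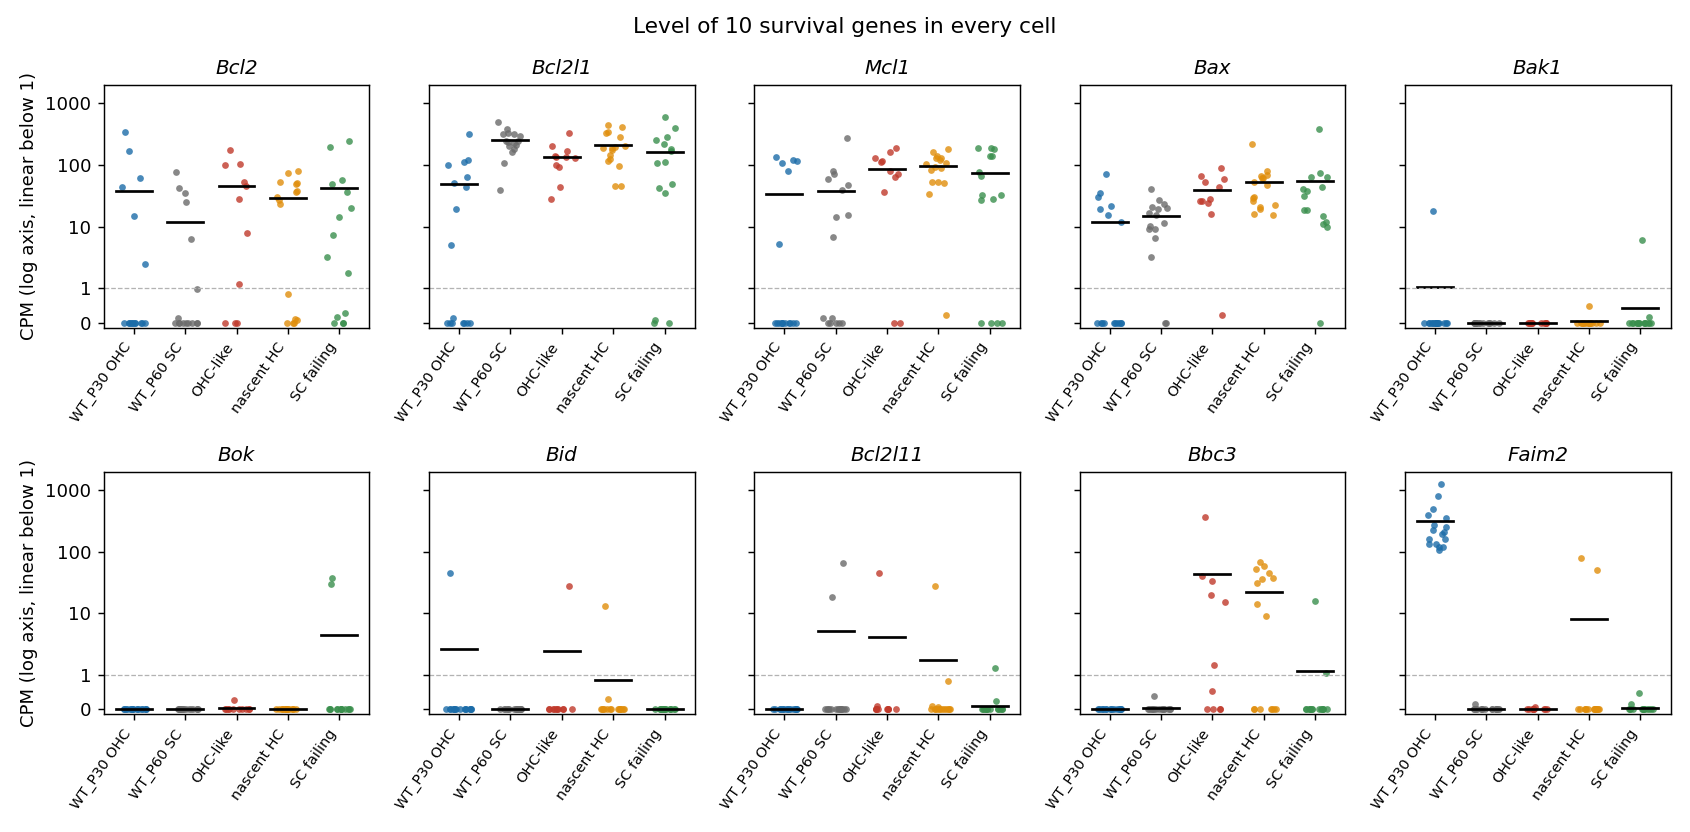
CPM of each gene (panels) in every cell (points) of the 5 groups, on a log axis that is linear below 1 CPM; black bars are group means and the dashed line marks 1 CPM. Faim2 lies between 108.1 and 1281 CPM in the WT_P30 OHCs and under 1 CPM in every other cell except 2 nascent HCs, and Bbc3 is above 1 CPM in induced cells only.

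Faim2 was found in every WT_P30 OHC and in few other cells. It was detected in 17 of 17 WT_P30 OHCs (100%, interval 80.49% to 100%), where the lowest cell had 108.1, the median 212.0 and the highest 1281 CPM. The mean was 319.7 ± 305.2 CPM (SD, n = 17), from 35728 counts. No WT_P60 SC reached 1 CPM (0 of 16, interval 0% to 20.59%), and the group held 1 count in all. No OHC-like cell reached it either (0 of 11, interval 0% to 28.49%), again with 1 count in the group, although all 11 had Prestin (Slc26a5) transcript at 15.9 to 174.5 CPM. WT_P30 OHCs and these groups did not overlap, and the share of all genes without such overlap was not computed. The ratio of summed counts was 35200 over WT_P60 SCs (counting interval 6318 to 1390000) and 34060 over OHC-like cells (counting interval 6112 to 1345000). Without WT_P60 SC 15, or without OHC-like cell 8, the lone count in each group was gone. With the empty group set to 3 counts, the read ratios were then at least 11605-fold and at least 10422-fold.

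Among the induced cells Faim2 appeared in 2 of 16 nascent HCs, cell 12 at 80.9 CPM (1658 counts) and cell 14 at 50.8 CPM (387 counts), both under the lowest WT_P30 OHC. The other 14 nascent HCs had no count. Nascent HC 12 also held the OHC marker Ocm at 32.7 CPM, while nascent HC 14 had no Ocm count. Ocm was detected in 6 of 16 nascent HCs and was highest, at 6481 CPM, in cell 5, which had no Faim2 count. The failing SCs held 3 counts in 2 of 15 cells, and none reached 1 CPM. Because Faim2 is known from neurons, neuronal markers were read beside it: 10 of the 17 WT_P30 OHCs had no count of Nefl, Nefm, Nefh, Prph or Rbfox3, and those 10 held Faim2 at 118.2 to 1281 CPM. The summed level of these 5 markers ran from 0 to 206.9 CPM in WT_P30 OHCs, where Nefh, Prph and Rbfox3 had no count. It ran from 0 to 2.17 in WT_P60 SCs, from 0 to 412.6 in OHC-like cells and from 0 to 540.4 in nascent HCs. Of the 2 nascent HCs with Faim2, cell 12 had a sum of 123.8 CPM and cell 14 had no count of these markers.

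The genes most like Faim2 over the 75 cells were Atp8a2, Gm5111, Vwa3a, Paqr9 and Pcp4, with Spearman's rho of 0.895, 0.879, 0.873, 0.868 and 0.857 on log2(CPM + 1), as a description over cells that share groups and depth. Of the other 5 members compared, none had a gene above 0.8, and their highest values ranged from 0.5525 (Bcl2, with Tada1) to 0.62 (Bbc3, with Oca2). Of the 23693 genes found in at least 1 cell, 44 were found in all 17 WT_P30 OHCs and in no WT_P60 SC. Of these 44, 4 were also found in no OHC-like cell: Faim2, Atp8a2, Gm5111 and Gm5737, a count made after the values were seen. Atp8a2, which encodes a phospholipid flippase, averaged 239.3 ± 163.9 CPM in WT_P30 OHCs (SD, n = 17) and had no count in WT_P60 SCs or OHC-like cells. The same 4 genes reached 1 CPM in no failing SC.

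The anti-apoptotic member Bcl2l1 had the opposite order. All 16 WT_P60 SCs contained it, at 39.7 to 509.2 CPM, median 241.6, as did 9 of 17 WT_P30 OHCs, whose lowest, median and highest values were 0, 5.03 and 323.2 CPM. Mean levels were 252.2 ± 111.3 CPM (SD, n = 16) and 49.6 ± 82.8 CPM (SD, n = 17), a 5.09-fold difference, although the ranges overlapped. Without WT_P30 OHC 5, the highest of its group, the difference was 7.76-fold. Every OHC-like cell (28.4 to 333.2 CPM, median 133.4) and every nascent HC (45.6 to 450.6 CPM, median 186.4) contained Bcl2l1, as did 12 of 15 failing SCs. Means in these 3 groups were 137.2 ± 82.1 (SD, n = 11), 210.3 ± 123.5 (SD, n = 16) and 164.7 ± 170.8 CPM (SD, n = 15). They were thus 1.84-fold, 1.20-fold and 1.53-fold below the WT_P60 SCs, differences smaller than the SD over cells for the last 2 groups. OHC-like cells stood 2.77-fold above WT_P30 OHCs, which became 4.22-fold, past the fold, without WT_P30 OHC 5.

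Mcl1, whose protein is short-lived and has to be made continuously, was found in 6 of 17 WT_P30 OHCs, 9 of 16 WT_P60 SCs, 9 of 11 OHC-like cells, 15 of 16 nascent HCs and 11 of 15 failing SCs. Its means were 33.3 ± 53.6, 38.3 ± 69.8, 87.5 ± 61.6, 96.55 ± 49.5 and 73.95 ± 74.6 CPM in that order (SD over 17, 16, 11, 16 and 15 cells). In nascent HCs 15 cells lay between 34.3 and 185.3 CPM, and in WT_P60 SCs the median cell was at 10.5 CPM and cell 1 alone reached 277.9. Mcl1 was 2.52-fold higher in nascent HCs than in WT_P60 SCs, and 4.33-fold higher, past the fold, without WT_P60 SC 1. The ratio was 2.29-fold for OHC-like cells and 1.93-fold for failing SCs, and without that cell 3.92-fold and 3.32-fold. WT_P30 OHCs and WT_P60 SCs differed by 1.15-fold, less than the spread over cells, and in the other direction, by 1.49-fold, without WT_P60 SC 1.

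Bcl2 itself was sparse and uneven. It was detected in 6 of 17 WT_P30 OHCs and 6 of 16 WT_P60 SCs, and in 8 of 11 OHC-like cells, 10 of 16 nascent HCs and 10 of 15 failing SCs. The mean was 37.8 ± 91.2 CPM in WT_P30 OHCs (SD, n = 17), where cell 3 held 349.8 CPM and cell 13 held 170.4. It was 11.7 ± 22.45 CPM in WT_P60 SCs (SD, n = 16), whose highest cell, 12, held 78.0 CPM. OHC-like cells averaged 46.4 ± 57.1 (SD, n = 11), nascent HCs 28.9 ± 27.4 (SD, n = 16) and failing SCs 42.3 ± 75.7 CPM (SD, n = 15), so that each mean was close to or below its SD. Over WT_P60 SCs these were 3.96-fold, 2.46-fold and 3.61-fold higher, and without WT_P60 SC 12 they were 6.35-fold, 3.95-fold and 5.78-fold higher. The OHC-like ratio lay so close to 4-fold that leaving out any of 10 cells (OHC-like cells 2, 3, 4, 5, 6 and 10, WT_P60 SCs 5, 6, 12 and 14) put it past the fold, as did WT_P60 SCs 5, 6 or 12 for the failing SCs. The WT_P30 OHC mean was 3.22-fold above that of WT_P60 SCs, 1.56-fold above it without WT_P30 OHC 3, and past the fold, at a log2 ratio of 2.37, without WT_P60 SC 12. The exons of Bcl2 overlap those of D630008O14Rik on the opposite strand, and the strand setting of the counting is not given in the sources used here.

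**Figure D2:**
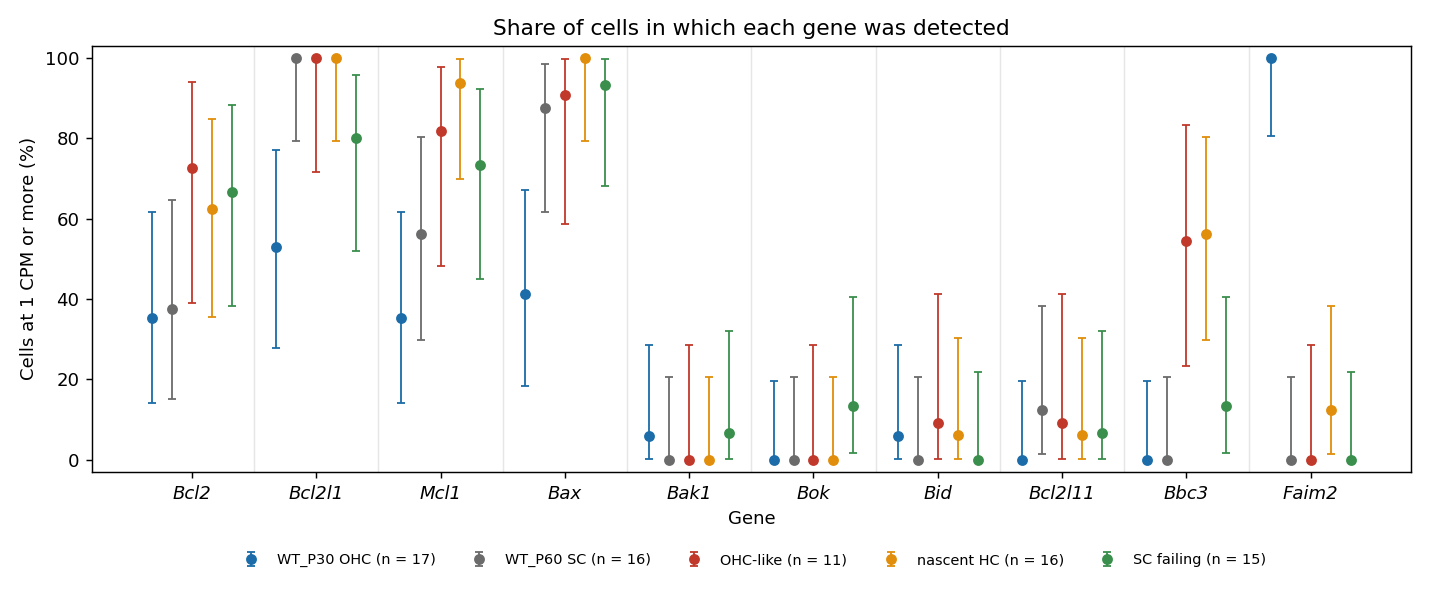
Share of cells at 1 CPM or more (y axis, percent) for each gene (x axis) in the 5 groups; bars are exact 95% binomial intervals. Bak1, Bok, Bid and Bcl2l11 stay at or below 13.33% in every group, and Faim2 separates WT_P30 OHCs (100%) from the others (0% to 12.5%).

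Counted per cell, the 3 anti-apoptotic members were found together in 1 of 17 WT_P30 OHCs, 2 of 16 WT_P60 SCs, 7 of 11 OHC-like cells, 9 of 16 nascent HCs and 6 of 15 failing SCs. In 10 of 17 WT_P30 OHCs exactly 1 of them was detected and in 2 cells none was, whereas 11 of 16 WT_P60 SCs had exactly 2. Put on a per-length scale as TPM (transcripts scaled by exon length and to a common total), their summed level was 61.05 ± 62.7 in WT_P30 OHCs (SD, n = 17) and 182.5 ± 87.6 TPM in WT_P60 SCs (SD, n = 16). OHC-like cells had a sum of 130.3 ± 75.2 TPM (SD, n = 11), nascent HCs a sum of 178.7 ± 94.0 (SD, n = 16) and failing SCs a sum of 159.4 ± 126.3 (SD, n = 15). The sum was under 100 TPM in 14 of 17 WT_P30 OHCs and in 2 of 16 WT_P60 SCs. It was under 100 TPM in 2 of 11 OHC-like cells, 3 of 16 nascent HCs and 6 of 15 failing SCs. Bcl2l1 made up 81.5% of the summed TPM in WT_P60 SCs and 43.45% in WT_P30 OHCs, Mcl1 16.6% and 40.6%. In the 3 induced groups the Bcl2l1 share was 49.7%, 58.7% and 56.65%, and the Mcl1 share 41.5%, 36.9% and 36.7%.

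**Figure D3:**
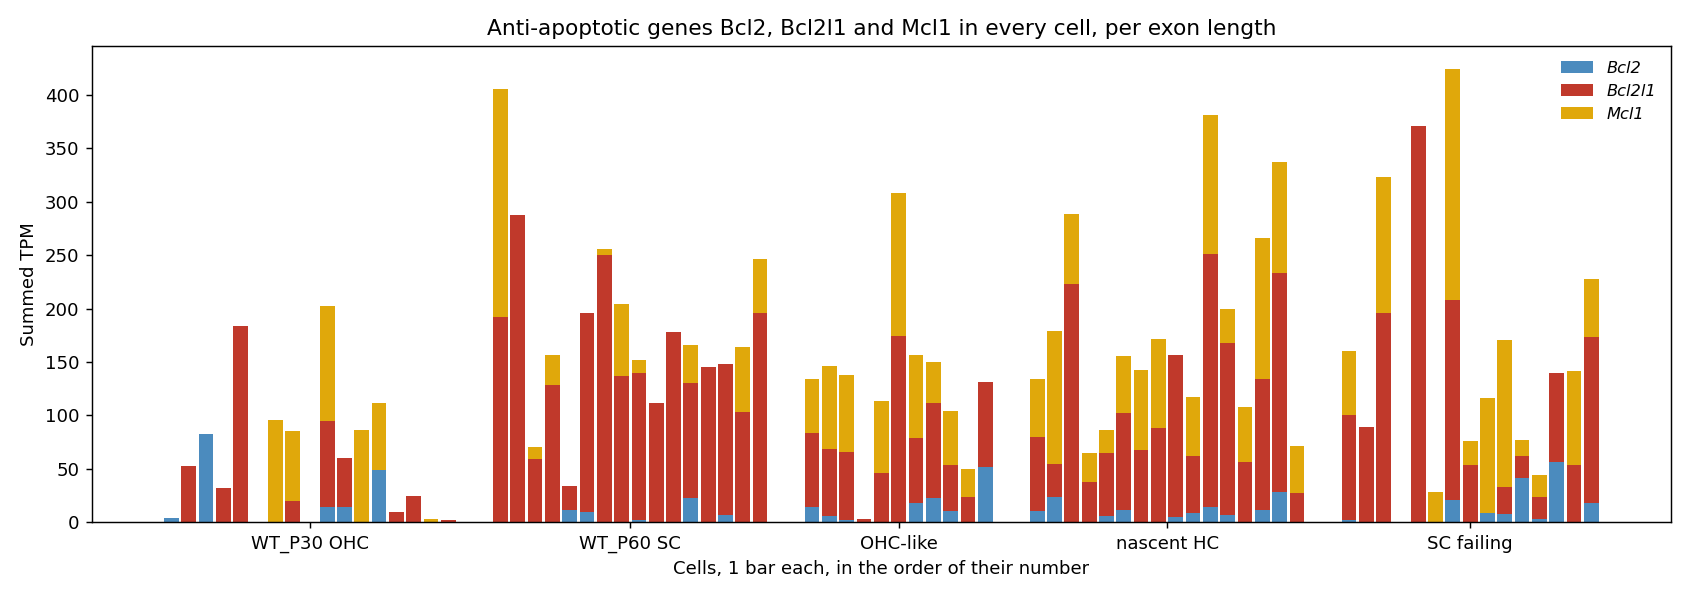
Summed TPM (y axis, linear from 0) of Bcl2, Bcl2l1 and Mcl1 in every cell, 1 stacked bar for each cell, grouped as labelled. Most WT_P30 OHC bars hold a single colour, and the WT_P60 SC bars are mostly Bcl2l1 (81.5% of the group's sum). Bars under 100 TPM number 14 of 17, 2 of 16, 2 of 11, 3 of 16 and 6 of 15 from left to right.

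Among the effectors only Bax was regularly found. Its values in WT_P30 OHCs ran from 0 to 72.9 CPM with a median of 0, and 7 of 17 cells were positive, while 14 of 16 WT_P60 SCs were positive at 3.25 to 40.8 CPM. The group means, 12.1 ± 19.6 (SD, n = 17) and 14.6 ± 10.7 CPM (SD, n = 16), differed by less than the spread over cells. Bax was detected in 10 of 11 OHC-like cells (39.2 ± 25.5 CPM, SD), 16 of 16 nascent HCs (52.2 ± 49.7 CPM, SD, range 15.5 to 220.6) and 14 of 15 failing SCs (55.2 ± 93.9 CPM, SD, highest 384.7 in cell 10). These means were 2.68-fold, 3.57-fold and 3.77-fold above WT_P60 SCs, and the last ratio was 2.16-fold without cell 10. Leaving out WT_P60 SC 1 put Bax past the fold in nascent HCs (log2 ratio 2.02), and leaving out WT_P60 SC 1 or 11 or failing cell 4 did so in failing SCs. By library series, defined with Bbc3 below, failing SCs averaged 9.48 CPM in series A (4 cells), 77.2 in C (10 cells) and 18.5 in E (1 cell), and the mean over series gave a log2 ratio to WT_P60 SCs of 1.26 in place of 1.92. OHC-like cells had 3.23-fold more Bax than WT_P30 OHCs, and 4.70-fold without WT_P30 OHC 17. On the TPM scale Bax exceeded Mcl1 in nascent HCs (81.1 ± 89.8 against 65.9 ± 39.8 TPM, SD, n = 16) by less than the SD over cells. It was below Bcl2l1 there (104.9 ± 69.8 TPM, SD, n = 16), also by less than the SD. In WT_P60 SCs Bax stood at 25.0 ± 18.3 TPM, against 30.4 ± 54.2 TPM for Mcl1 and 148.8 ± 66.2 TPM for Bcl2l1 (SD, n = 16). The exons of Bax overlap those of Gm45808 on the same strand.

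Bak1 was near the floor everywhere. WT_P30 OHC 5 held it at 17.7 CPM and 1 failing SC at 6.07 CPM, no other cell reached 1 CPM, and WT_P60 SCs and OHC-like cells had no count. Bok was at 30.2 and 37.2 CPM in failing SCs 3 and 15 and had no count in either wild-type group or in nascent HCs. A group without a count was set to 3 counts, and these zeros mean that no read was counted, not that transcript was absent. The exons of Bak1 overlap Ggnbp1 on the opposite strand.

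Of the BH3-only members, Bid and Bcl2l11 were found in 3 and 5 of the 75 cells, while the effector Bak1 was found in 2. Bid was found in WT_P30 OHC 1 (45.6 CPM), OHC-like cell 3 (27.5 CPM) and nascent HC 9 (13.3 CPM) and had no count in WT_P60 SCs or failing SCs. Its exons overlap those of Bcl2l13 on the opposite strand. Bcl2l11 was found in WT_P60 SCs 5 and 15 (66.1 and 18.2 CPM), OHC-like cell 1 (46.2 CPM), nascent HC 11 (27.5 CPM) and failing SC 12 (1.30 CPM), and had no count in the 17 WT_P30 OHCs. Any of Bak1, Bok, Bid and Bcl2l11 was detected in 2 of 17, 2 of 16, 2 of 11, 2 of 16 and 3 of 15 cells of the groups, in the order of the detection plot.

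Bbc3 differed from them. It had no count in the 17 WT_P30 OHCs and 3 counts, all in cell 14, in the 16 WT_P60 SCs, so that no wild-type cell reached 1 CPM. It was detected in 6 of 11 OHC-like cells (54.55%, interval 23.4% to 83.25%) at 20.0, 1.47, 365.3, 33.0, 41.0 and 15.5 CPM in cells 1, 2, 4, 5, 6 and 9. The mean of 43.3 ± 107.8 CPM (SD, n = 11) rested on cell 4, which had few genes, and was 11.1 ± 15.5 CPM (SD, n = 10) without it. Of the nascent HCs, 9 of 16 were positive (56.25%, interval 29.9% to 80.25%) at 9.18 to 68.0 CPM, the other 7 had no count, and the mean was 22.0 ± 24.55 CPM (SD, n = 16). Of the failing SCs, 2 of 15 were positive (13.3%, interval 1.66% to 40.5%), cell 3 at 1.08 and cell 14 at 16.1 CPM, and the mean was 1.14 ± 4.14 CPM (SD, n = 15). This pattern was not particular to Bbc3. In all, 87 genes, Bbc3 among them, were found in no wild-type cell and in at least 6 OHC-like cells and 9 nascent HCs. Of these, 42 were found in at most 2 failing SCs, out of 23693 genes found in at least 1 cell. These counts were made after the values were seen.

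Relative to WT_P60 SCs, with 3 counts, the ratio of summed Bbc3 counts was 954.5 for OHC-like cells (counting interval 326.3 to 4631) and 773.4 for nascent HCs (counting interval 264.4 to 3752). The ratio of means for OHC-like cells was 1732, and 445.2 without OHC-like cell 4. Over WT_P30 OHCs, set at 3 counts over the group, the OHC-like mean was at least 1685-fold higher, and at least 433.3-fold higher without OHC-like cell 4. Within library series, the runs of consecutive codes that follow the library number in the sample descriptions, Bbc3 was found in 4 of 5 OHC-like cells and 3 of 6 nascent HCs of series B, and in 1 of 3 and 2 of 4 of series D. In series C it was found in 1 of 1 nascent HC and 1 of 10 failing SCs, in series A in 1 of 1 OHC-like cell, 0 of 1 nascent HC and 1 of 4 failing SCs, and in series E in 0 of 2, 3 of 4 and 0 of 1. Most failing SCs were in series A and C and most Myo7a+ cells in B, D and E, so series and cell type were largely confounded, and each wild-type group formed a series of its own.

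Markers of other cell types also differed between the groups. Mbp, a myelin gene, had no count in either wild-type group and reached 1 CPM in 9 of 11 OHC-like cells, 11 of 16 nascent HCs and 2 of 15 failing SCs. Mbp was present in 5 of 6 Bbc3-positive OHC-like cells, 5 of 9 positive nascent HCs and neither of the 2 positive failing SCs, and its part in the Bbc3 result was not tested. Haemoglobin genes reached 2295 CPM in sum in OHC-like cell 2, and macrophage markers (C1qa, C1qb, Cx3cr1, Ptprc) summed to 0.133 CPM at most in the induced cells.

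**Figure D4:**
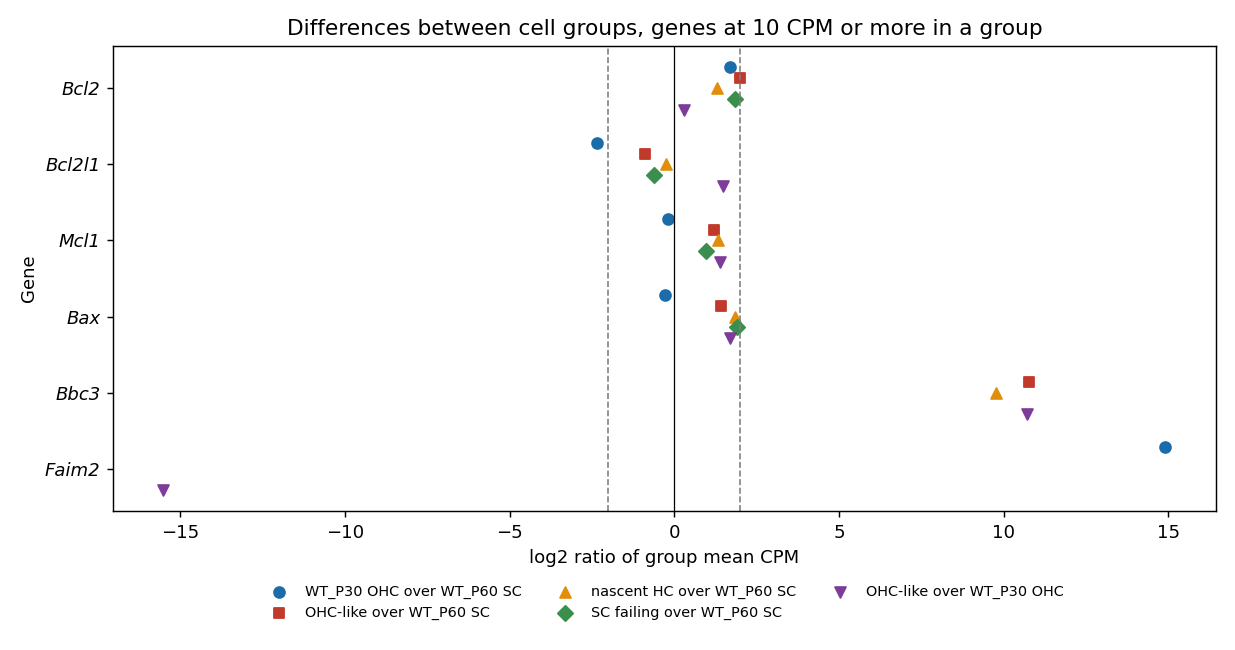
The log2 ratio of group mean CPM (x axis) for the members at 10 CPM or more in 1 of the groups compared (rows), 1 symbol for each of the 5 comparisons; dashed lines mark the 4-fold limits. Only Bcl2l1 (-2.35, WT_P30 OHCs over WT_P60 SCs), Bbc3 (9.78 to 10.76) and Faim2 (14.91 and -15.52) lie outside them.

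Promoters are shown for the 2 Bcl2 family members past the fold, to place their start sites. RefSeq promoter sequences (GRCm38.p6, 300 bases with 250 upstream of a start) were matched for 9 of the 10 members, all but Faim2, with 14 starts in all. The motifs searched on both strands were CAGCTG and CAGATG, 2 forms of the E-box bound by basic helix-loop-helix factors such as Atoh1; they do not overlap each other. CAGCTG was in 16.3% and CAGATG in 17.15% of 32851 mouse promoters. Of the 14 member promoters, 1 start of Bcl2l11 held CAGCTG and 1 start of Bcl2l1 held CAGATG, and none of the 3 Bbc3 starts held either. The 250 bases upstream of the outermost Bcl2l1 start (minus strand) and of the first Bbc3 start (plus strand) are given 5′ to 3′, with the CAGATG in capitals:
Bcl2l1 chr2:152831729-152831978: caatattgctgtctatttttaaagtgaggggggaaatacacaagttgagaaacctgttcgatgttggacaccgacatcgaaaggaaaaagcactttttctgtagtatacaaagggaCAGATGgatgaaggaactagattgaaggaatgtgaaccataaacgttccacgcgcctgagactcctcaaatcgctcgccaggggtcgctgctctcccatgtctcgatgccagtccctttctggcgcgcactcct
Bbc3 chr7:16309333-16309582: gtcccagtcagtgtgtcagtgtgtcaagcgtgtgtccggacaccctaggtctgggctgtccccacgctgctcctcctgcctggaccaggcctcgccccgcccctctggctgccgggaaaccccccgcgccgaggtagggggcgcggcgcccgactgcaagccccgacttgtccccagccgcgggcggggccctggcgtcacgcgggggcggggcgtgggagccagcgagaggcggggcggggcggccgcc
Over the 300 bases the Bbc3 promoter held 34 CpG dinucleotides and this Bcl2l1 promoter 22, against a median of 7 (quartiles 3 and 20) over all promoters. In GRCm38 the Bbc3 gene spans chr7:16308393-16318205 on the plus strand and Bcl2l1 chr2:152780668-152831728 on the minus strand, and the Bbc3 window lies in an intron of the GENCODE gene. Faim2 spans chr15:99497012-99528165 on the minus strand, with no overlapping exon of another gene.

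A further 48 genes of 8 pathway lists were read beside the members. Of the 7 genes of the death receptor list 3 were at 10 CPM, and these 3 were lower past the fold in WT_P30 OHCs than in WT_P60 SCs, where 21.5% of all genes tested were: Casp8, which cleaves Bid, had no count in WT_P30 OHCs against 26.8 ± 39.4 CPM in WT_P60 SCs (SD, n = 16), Cflar, an inhibitor of caspase 8, was 4.51 ± 17.4 against 55.6 ± 63.6 CPM, and the receptor gene Tnfrsf1a 3.50 ± 13.8 against 24.65 ± 36.0 CPM (SD, n = 17 and 16). Cflar and Tnfrsf1a in WT_P30 OHCs rested on cells 11 and 3, without which they were 185.8-fold and 153.0-fold lower. The list median over the 3 genes was -3.62, beside -0.12 for all genes tested. In OHC-like cells the same 3 genes were higher than in WT_P30 OHCs, as were 23.5% of all 10247 genes tested. Casp8 was found in 7 of 11 OHC-like cells with a mean of 39.8 ± 45.4 CPM (SD, n = 11), at least 1546-fold above WT_P30 OHCs. Cflar was past the fold there except without OHC-like cell 2, and without WT_P30 OHCs 11 and 3 the ratios of Cflar and Tnfrsf1a were 78.5 and 217.5. None of the 3 was past the fold between any induced group and WT_P60 SCs. Fas, the receptor that Faim2 acts on, had no count in 4 groups and was found in 1 of 15 failing SCs, cell 6, at 431.3 CPM.

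In the apoptosome and caspase list of 8 genes, Diablo, an antagonist of the inhibitors of apoptosis, was higher than in WT_P60 SCs (6.10 ± 17.9 CPM, SD, n = 16, 3 cells) in all 4 other groups, by 5.60-fold in WT_P30 OHCs, 5.17-fold in OHC-like cells, 6.99-fold in nascent HCs (16 of 16 cells) and 4.67-fold in failing SCs. Without WT_P60 SC 1 these ratios were 18.2, 16.8, 22.7 and 15.1, and without failing SC 9 that of failing SCs was not past the fold. Casp9, the apoptosome caspase, had 3 counts in WT_P30 OHCs against 28.5 ± 45.0 CPM in WT_P60 SCs (SD, n = 16). Htra2, a mitochondrial protease gene, was lower in OHC-like cells (2.38 ± 4.76 CPM, SD, n = 11) than in WT_P60 SCs and WT_P30 OHCs, by 4.55-fold and 7.46-fold (7.86-fold and 12.9-fold without OHC-like cell 10), and the first was not past the fold without WT_P60 SC 2, 5, 14 or 15.

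Among the 7 other BH3-only genes, of which 4 or 5 were at 10 CPM in each comparison, Bik was 5.975-fold lower in WT_P30 OHCs (4.02 ± 16.6 CPM, 1 of 17 cells) than in WT_P60 SCs (24.0 ± 32.3 CPM, 9 of 16 cells) and 6.46-fold higher in OHC-like cells (26.0 ± 23.7 CPM, 8 of 11 cells) than in WT_P30 OHCs. Without WT_P30 OHC 10, the only one with a count, Bik was at least 875.5-fold lower and at least 946.4-fold higher. Bmf was past the fold in WT_P30 OHCs from cell 17 alone, and Pmaip1 in failing SCs from 2 of 15 cells (at least 1612-fold, and at least 677.2-fold without cell 6). Bnip3l was found in all 75 cells. Of the 5 other anti-apoptotic genes, Bcl2l2 (Bcl-w) was lower in OHC-like cells (1.22 ± 2.15 CPM, SD, n = 11) than in WT_P60 SCs, by 21.4-fold, and than in WT_P30 OHCs, by 11.8-fold (39.1-fold and 21.5-fold without OHC-like cell 7, and the second not past the fold without WT_P30 OHC 12), and Bcl2a1a, Bcl2a1b, Bcl2a1d and Bcl2l10 reached 1 CPM in no cell. Of the 4 other Bcl2-like genes, Bcl2l13 was 8.29-fold lower in WT_P30 OHCs than in WT_P60 SCs and 8.21-fold higher in OHC-like cells than in WT_P30 OHCs, where 2 of 17 cells held it (49.0-fold and 48.5-fold without WT_P30 OHC 7), and Bcl2l14 had no count in WT_P30 OHCs against 30.5 ± 45.05 CPM in WT_P60 SCs (SD, n = 16). In the inhibitor of apoptosis list of 5 genes only Birc3 was past the fold, in failing SCs (49.2 ± 114.8 CPM, 4 of 15 cells) over WT_P60 SCs (1 of 16 cells), by 145.6-fold and, without WT_P60 SC 3, the only one with a count, at least 1764-fold.

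The TMBIM relatives of Faim2 did not share its pattern. Tmbim4, Ghitm and Tmbim6 were detected in all 75 cells, and Tmbim6 averaged 141.7 ± 77.2 CPM in WT_P30 OHCs (SD, n = 17) and 203.5 ± 87.1 CPM in WT_P60 SCs (SD, n = 16). All 6 genes of the list were tested in each comparison, and the calls were of Tmbim1, 4.37-fold lower in OHC-like cells and 4.59-fold lower in nascent HCs than in WT_P60 SCs (422.4 ± 177.4 CPM, SD, n = 16), the first not past the fold without OHC-like cell 4, 9 or 10.

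In the p53 list, with 5 of 6 genes at 10 CPM in each comparison, Trp53 was 6.59-fold higher in failing SCs (73.1 ± 97.0 CPM, 11 of 15 cells) than in WT_P60 SCs (11.1 ± 21.1 CPM, 5 of 16 cells) and 6.61-fold higher in OHC-like cells (23.3 ± 23.7 CPM, 6 of 11 cells) than in WT_P30 OHCs (3.53 ± 9.95 CPM, 2 of 17 cells), or 13.4-fold without WT_P30 OHC 9. Cdkn1a, the p21 gene and like Bbc3 a p53 target, had another order than Bbc3: 506.0 ± 302.1 CPM in WT_P60 SCs (16 of 16 cells), 524.2 ± 670.9 in nascent HCs, 449.2 ± 646.7 in failing SCs, 49.2 ± 81.7 in OHC-like cells and 2.76 ± 11.4 CPM in WT_P30 OHCs (1 of 17 cells), SD over cells in each. It was past the fold in WT_P30 OHCs and OHC-like cells, 183.1-fold and 10.3-fold below WT_P60 SCs, and stood 17.8-fold higher in OHC-like cells than in WT_P30 OHCs. Without WT_P30 OHC 3, the only one with a count, the first and last were at least 18300-fold and at least 1780-fold, and without OHC-like cell 5 it was 16.8-fold below WT_P60 SCs in OHC-like cells. Mdm2, Zmat3, Trp53inp1 and Sesn2 were past the fold in none of the 5 comparisons.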

How the data were processed

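Per the labels, the authors amplified RNA of 75 hand-picked cells with a Smart-Seq HT kit and tagmented the cDNA. After FastQC 0.11.9 and Trimmomatic 0.39, HISAT2 2.1.0 aligned the reads to the mouse genome GRCm38 (mm10), and the authors deposited HTSeq 0.10.0 read counts per gene; annotation release and strand setting are not given in the sources used here. Reads carry no molecular identifiers. The vector row WPRE (0.0254% of counts) was left out.

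CPM used TMM factors (edgeR 4.0.16, 11443 genes) over all 75 cells; detection was 1 CPM of the unscaled total. TPM used exon lengths of GENCODE M21. The log2 ratio of group means was computed for all 55291 genes, with a minimum mean of 10 CPM in 1 group and a group without a count set to 3 counts. Named were all members, every list gene past the fold and the 5 genes most like a member (11931 genes at 1 CPM in 10 or more cells); some list and marker genes are not reported here. Cells are not replicates and no animal is named, so no test was made. The ratio step was tested on simulated counts. Members and lists were chosen with earlier results of these data known. Alternatives were other scalings (library size, DESeq2 1.42.0), filters, summaries and folds, thinned counts, and cells or library series left out or averaged.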

Additional observations from a re-analysis of the deposited data

How the results depend on the processing

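Counts of members past the fold were 2 for WT_P30 OHCs over WT_P60 SCs, 1 for OHC-like cells over WT_P60 SCs, 1 for nascent HCs, 0 for failing SCs and 2 for OHC-like cells over WT_P30 OHCs. With no filter on low values they became 5, 2, 3, 4 and 4. Of all genes, 20.3%, 28.1%, 25.6%, 25.8% and 35.5% were then higher and 32.8%, 21.3%, 20.9%, 18.6% and 15.8% lower. With a limit of 2-fold in place of 4-fold the member counts became 3, 4, 4, 2 and 5. Of all genes, 26.9%, 34.1%, 32.0%, 30.4% and 38.6% then passed as higher and 33.0%, 20.0%, 19.1%, 17.4% and 18.6% as lower. With differences of mean log2(CPM + 1) the last 4 became 3, 2, 1 and 5. The shares of all genes were 20.7%, 21.4%, 9.73% and 37.2% higher and 9.5%, 8.56%, 8.53% and 4.74% lower. With summed counts the middle 3 became 2, 2 and 1, beside 19.6%, 18.2% and 16.0% of genes higher and 11.6%, 10.4% and 8.11% lower. With the mean of library series the last 4 became 2, 2, 1 and 3. The shares of all genes were 19.1%, 17.4%, 16.3% and 23.6% higher and 10.9%, 11.2%, 9.95% and 10.4% lower. Without the 3 cells with few genes there were 2 for OHC-like cells and 2 (Bcl2 and Bax) for failing SCs over WT_P60 SCs. The shares of all genes were 18.8% and 15.9% higher and 11.2% and 8.39% lower. With DESeq2 size factors there was 1 (Bax) for failing SCs over WT_P60 SCs, beside 17.7% of genes higher and 9.05% lower. Leaving out 1 cell at a time, an alternative added after the values were seen, gave 2 to 3, 1 to 2, 1 to 3, 0 to 1 and 2 to 3. Apart from the folds given with single cells left out, the cause of these shifts was not tested. Faim2 (2 comparisons), Bcl2l1 (WT_P30 OHCs against WT_P60 SCs) and Bbc3 (3 comparisons) were past the fold in every setting run, with the smallest log2 sizes 7.91, -2.22 and 2.64. Where a setting gave another value, 231 log2 ratios moved by less than the spread over cells and 29 by more, with no call reversed. The median of all genes for WT_P30 OHCs over WT_P60 SCs was -0.12 with TMM, 0.02 with library size only and -0.28 with DESeq2 size factors, and for OHC-like cells over WT_P60 SCs 0.35, 0.19 and 0.12. No paired analysis was possible because each sample is a cell and the numbers in the labels name cells, not animals. A group without a count of a gene was set to 3 counts, and how much transcript such a zero could hide was not tested.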
